A study of Mus musculus with 6 samples.

Results

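The nuclear genes of the mitochondrial respiratory chain were followed at the mRNA level in 3 mouse melanoma lines. Members were chosen by gene symbol alone: Nduf genes of the subunit series A, B, C, S and V, Sdha to Sdhd, all Uqcr genes, the Cox genes of series 4 to 8 and all Atp5 genes, without pseudogene symbols. The rule found 84 of the 23951 genes in the deposited table. B16-F1 is a melanoma line of low metastatic potential obtained from ATCC, B16-F1R2 is a line derived from a lymph node metastasis, and the labels give B16-F1R2L as a line from a lung metastasis that itself derived from a lymph node metastasis line. Each line was sequenced in 2 libraries (replicates 1 and 2), without treatment, and all lines grew in high glucose DMEM. B16-F1R2 and B16-F1R2L came from another laboratory than B16-F1, so that the derivation of a line and its source cannot be told apart, and each line stands for its own history of culture and selection only. No label says whether the libraries came from separate cultures, so the p-values measure only the spread between these libraries, which may be technical.

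The respiratory chain lies in the inner membrane of mitochondria. Complex I (NADH dehydrogenase) and complex II (succinate dehydrogenase) pass electrons to ubiquinone, complex III hands them on to cytochrome c, and complex IV (cytochrome c oxidase) passes them to oxygen, while complex V (ATP synthase) uses the proton gradient that complexes I, III and IV build. Most subunits are encoded in the nucleus and imported, and melanoma cells are known to vary in how far they rely on respiration or on glycolysis.

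Values are FPKM, fragments per kilobase of transcript per 1000000 mapped fragments, which allow levels of different genes to be set side by side. The depth behind them, estimated from the lowest non-zero values, was 12600000 to 14500000 reads a library. The FPKM of a library summed to 596657 to 672794, lowest in B16-F1R2L. All 7 melanocyte markers were above 1 FPKM in every library, with a summed level of 14970 to 15010 FPKM in B16-F1, 7909 to 8125 in B16-F1R2 and 8924 to 8933 in B16-F1R2L, and 6 of the 7 markers, among them Tyr, Dct and Pmel, were lower in each metastasis line. The other one, Mitf, was higher in B16-F1R2L (log2 fold change 0.40, limma adjusted p = 0.00315) and gave no call for B16-F1R2 (limma adjusted p = 0.106). Markers of fibroblasts, leukocytes and epithelium were at or near 0 in all lines. In a bulk sample fewer cells of a type and less RNA per cell cannot be told apart.

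The subunit mRNAs were among the more abundant transcripts of all lines. Of the 84 members, 78 reached at least 1 FPKM in at least 2 libraries and were tested, and their median mean level was 262.2 FPKM against 13.4 FPKM for all 11379 genes tested. The mean of 66 members was at least 100 FPKM, that of 18 was under 100 FPKM and that of 10 was under 10 FPKM. Together the members held 4.03 to 4.34% of all FPKM in a library. Levels were highest in complexes IV and V. The median of the member means was 197.5 FPKM in complex I (35 members), 187.2 in complex II (4 members), 406.1 in complex III (8 members), 530.5 for the 12 members of complex IV used in most tissues, and 609.2 in complex V (15 members).

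**Figure D1:**
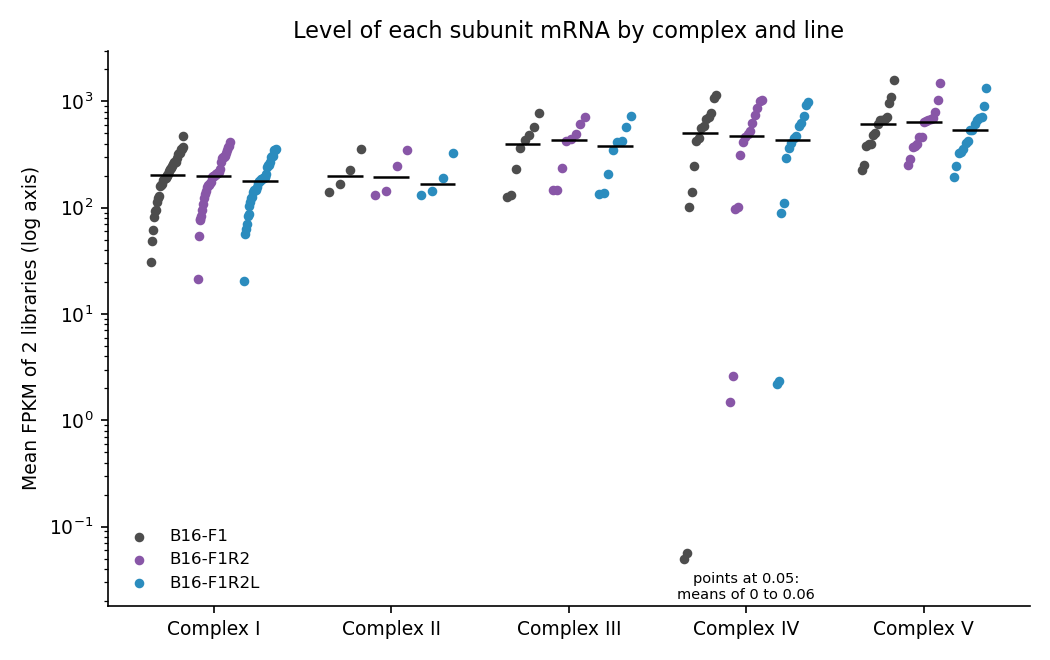
Each point is the mean FPKM of 1 tested member over the 2 libraries of a line (log axis), sorted from low to high within each complex and line, and the bar is the median. Complex V sits highest in each line, and the low points of complex IV are Cox7a1 and Ndufa4l2, whose B16-F1 means of 0 and 0.06 FPKM are drawn at or near 0.05.

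Within a complex the subunits are assembled in fixed proportions, but their mRNAs were not level. In complex I the range of mean levels ran from Ndufa11, an accessory subunit of the membrane arm, at 24.13 FPKM to Ndufa12, an accessory subunit of the peripheral arm, at 376.2 FPKM, a ratio of 15.6. The GENCODE M1 transcript of Ndufa11 has 2661 bases with a coding sequence of 432, beside a median transcript of 760.5 bases for the tested members. FPKM divide by transcript length, and how far the annotated length lowers the Ndufa11 value was not tested. Complex II ran from Sdha, the flavoprotein that oxidises succinate, at 134.5 FPKM to Sdhb, its iron-sulfur partner, at 343.3 FPKM. Complex III ran from Uqcrfs1, the Rieske iron-sulfur protein, at 136.8 FPKM to Uqcrq at 743.6 FPKM. In complex IV the lowest of the 12 common subunits was Cox7c at 95.9 FPKM and the highest was Ndufa4 at 1065 FPKM. Complex V ran from Atp5g1 at 233.2 FPKM to Atp5b, the catalytic beta subunit, at 1478 FPKM.

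Members with near-identical copies elsewhere in the genome carry uncertain levels, because reads of 50 bases with up to 20 positions were kept. In the reference of the same assembly (NCBIM37), 35 of the 78 tested members had no stretch of 50 bases that occurs elsewhere, 18 had over 20% of their stretches shared and 9 had over 50%. Atp5g2 was shared throughout, Atp5g1 in 86.84% of its stretches, Cox7c in 71.49% and Uqcrb in 61.52%. The 13 listed symbols of subunits encoded in mitochondrial DNA had no entry among the deposited genes, so these subunits were not analysed here.

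Complex V holds a ring of c subunits, whose identical mature protein is made from Atp5g1, Atp5g2 and Atp5g3. Atp5g3 gave 49.6 to 53.5% of their summed FPKM, Atp5g2 34.0 to 39.6% and Atp5g1 10.7 to 12.9%. Atp5g3 gave the highest part in all 6 libraries, and the B16-F1R2L libraries had the highest part of Atp5g2 and the lowest of Atp5g1. Atp5g3 had no shared stretch, unlike Atp5g1 and Atp5g2, so these parts depend on how reads with several positions were assigned.

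The comparison of B16-F1R2 with B16-F1 asks how the lymph node line differs from the line of low metastatic potential. The subunit genes were split in direction: 12 of the 78 tested members were higher in B16-F1R2 (15.4%) and 18 were lower (23.1%), where 28.2% of all genes tested were higher and 27.2% lower (limma on log2(FPKM + 0.1), Benjamini-Hochberg adjusted p under 0.05). The 12 higher include Cox7a1 and Ndufa4l2, which were near 0 in B16-F1 and passed the filter only through the metastasis lines, and without them 10 were higher. The median log2 fold change of the members was -0.01, beside 0.01 for all genes. Single subunits of complex I were lower by up to 36.0% and other subunits of the same complex were higher by up to 34.2%. A correction for GC content and transcript length raised the number lower to 38 (12 higher), with a member median of -0.10. Other genes moved the same way under it: the share lower went from 30.7% to 41.9% among other genes of at least 100 FPKM, and from 21.2% to 50% among the 66 members of that level. Without replicate 2 of B16-F1R2 the counts were 19 higher and 11 lower. Without replicate 1 or replicate 2 of B16-F1 they were 7 higher and 9 lower, or 9 and 10.

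In complex I, 12 of 35 members were lower and 4 were higher in B16-F1R2. Without replicate 2 of B16-F1R2 the counts were 8 lower and 8 higher, and without replicate 1 or replicate 2 of B16-F1 they were 7 lower and 1 higher, or 6 and 3. Quantile normalization gave 13 lower and 10 higher. Ndufa3, an accessory subunit of the membrane arm, had 482.9 and 470.4 FPKM in the B16-F1 libraries, against 321.9 and 289.3 in those of B16-F1R2 and 309.5 and 309.1 in those of B16-F1R2L. Both metastasis lines were below both B16-F1 libraries, and the log2 fold change of B16-F1R2 was -0.64 ± 0.06 (SE, n = 2 libraries a line, limma adjusted p = 0.000220). Ndufa11 had 29.75 and 32.04 FPKM in the B16-F1 libraries, against 21.60 and 20.92 in those of B16-F1R2 and 20.80 and 19.67 in those of B16-F1R2L. It fell by 0.54 on the log2 scale in B16-F1R2 (SE 0.06, limma adjusted p = 0.000488), without overlap between the lines. Ndufb10 and Ndufa13, further accessory subunits of the membrane arm, were lower by 25.4% and 24.6% (limma adjusted p = 0.00491 and 0.00125). Ndufa9, Ndufa7 and Ndufb2 were lower by 19.3 to 21.6%.

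The core subunits of complex I, which bind NADH and hold the redox centres, did not move one way. Ndufs1, the core subunit with most of the iron-sulfur clusters of the NADH-oxidising module, had 81.91 and 80.69 FPKM in the B16-F1 libraries, against 109.7 and 108.5 in those of B16-F1R2 and 102.0 and 104.4 in those of B16-F1R2L. All libraries of the metastasis lines were above both B16-F1 libraries, and the log2 fold change of B16-F1R2 was 0.42 ± 0.04 (SE, limma adjusted p = 0.000210). In contrast its neighbours Ndufv1, which binds NADH and the flavin, and Ndufv2 were lower by 16.8% and 12.2% (limma adjusted p = 0.0324 and 0.00908). Ndufs3, Ndufs7 and Ndufs8 did not pass the test. Of the accessory subunits, Ndufb3 went from 155.5 and 167.4 FPKM (B16-F1) to 212.4 and 193.2 FPKM (B16-F1R2), 25.5% higher (limma adjusted p = 0.00804). Ndufa12 and Ndufs4 were higher by 16.2% and 11.2%. Ndufs4, whose loss causes a Leigh-like disease in mice, gave no call after the correction for GC content.

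Complex II had 1 of 4 members lower, the membrane anchor Sdhc (13.2% lower, limma adjusted p = 0.0313). It had 0 lower with scaling by median ratios, without the filter on low values or without a trend. Quantile normalization gave 0 lower and 1 higher. Over the alternatives the log2 fold change of Sdhc ranged from -0.275 to -0.133. Complex III had 3 of 8 members higher and 0 lower in B16-F1R2, and its median log2 fold change was 0.08, positive under each of the 3 other scalings but 0.015 without replicate 1 of B16-F1R2 and 0.024 after the correction for GC content and length. Uqcrfs1, which carries electrons from ubiquinol towards cytochrome c, had 125.7 and 126.4 FPKM in the B16-F1 libraries, against 147.0 and 145.6 in those of B16-F1R2 and 139.8 and 136.2 in those of B16-F1R2L. Its B16-F1R2 level was 16.1% higher (limma adjusted p = 0.00359), with no overlap of libraries. Uqcrb was 21.1% higher and Uqcrc2, a core protein, 11.7% higher. After the correction for GC content and length complex III had 1 member higher and 2 lower.

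In complex IV, 3 of 14 tested members were higher and 3 were lower in B16-F1R2. Of the 3 higher, Cox7a1 and Ndufa4l2 passed the filter on low values only through the metastasis lines, and a filter of 5 FPKM, which removes both, left 1 higher and 3 lower of 12. The correction for GC content and length gave 4 higher and 7 lower of the 14. Cox7b, an accessory subunit, had 254.8 and 241.5 FPKM in the B16-F1 libraries, against 321.2 and 300.3 in those of B16-F1R2 and 288.1 and 298.3 in those of B16-F1R2L. It was 25.2% higher in B16-F1R2 (limma adjusted p = 0.00260). Cox8a, the smallest nuclear subunit, had 680.0 and 678.8 FPKM in the B16-F1 libraries, against 545.0 and 509.6 in those of B16-F1R2 and 491.3 and 459.4 in those of B16-F1R2L. It was 22.4% lower in B16-F1R2 (limma adjusted p = 0.00193), so that 2 subunits of the same enzyme moved in opposite directions without overlap between libraries. Cox7a2l, described as joining complexes III and IV into supercomplexes, was 27.0% lower (limma adjusted p = 0.00143), with 54.3% of its stretches shared. Its function in these lines was not tested.

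Complex V had 2 of 15 members higher and 2 lower, a count that moved with the setting. The correction for GC content and length gave 3 higher and 9 lower, quantile normalization 2 and 5, and the fit without replicate 1 of B16-F1 1 and 0. Atp5f1, subunit b of the stalk that holds the head of the enzyme, had 231.9 and 225.3 FPKM in the B16-F1 libraries, against 292.8 and 277.6 in those of B16-F1R2 and 250.7 and 239.1 in those of B16-F1R2L. It was 24.7% higher in B16-F1R2 (limma adjusted p = 0.00191). Atp5c1, the rotating gamma subunit, was 16.1% higher. Atp5j2 (subunit f) and Atp5e (epsilon) were 22.5% and 18.5% lower, while Atp5b, with 1573 and 1615 FPKM for B16-F1 and 1528 and 1461 FPKM for B16-F1R2, did not pass the test (limma adjusted p = 0.187).

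**Figure D2:**
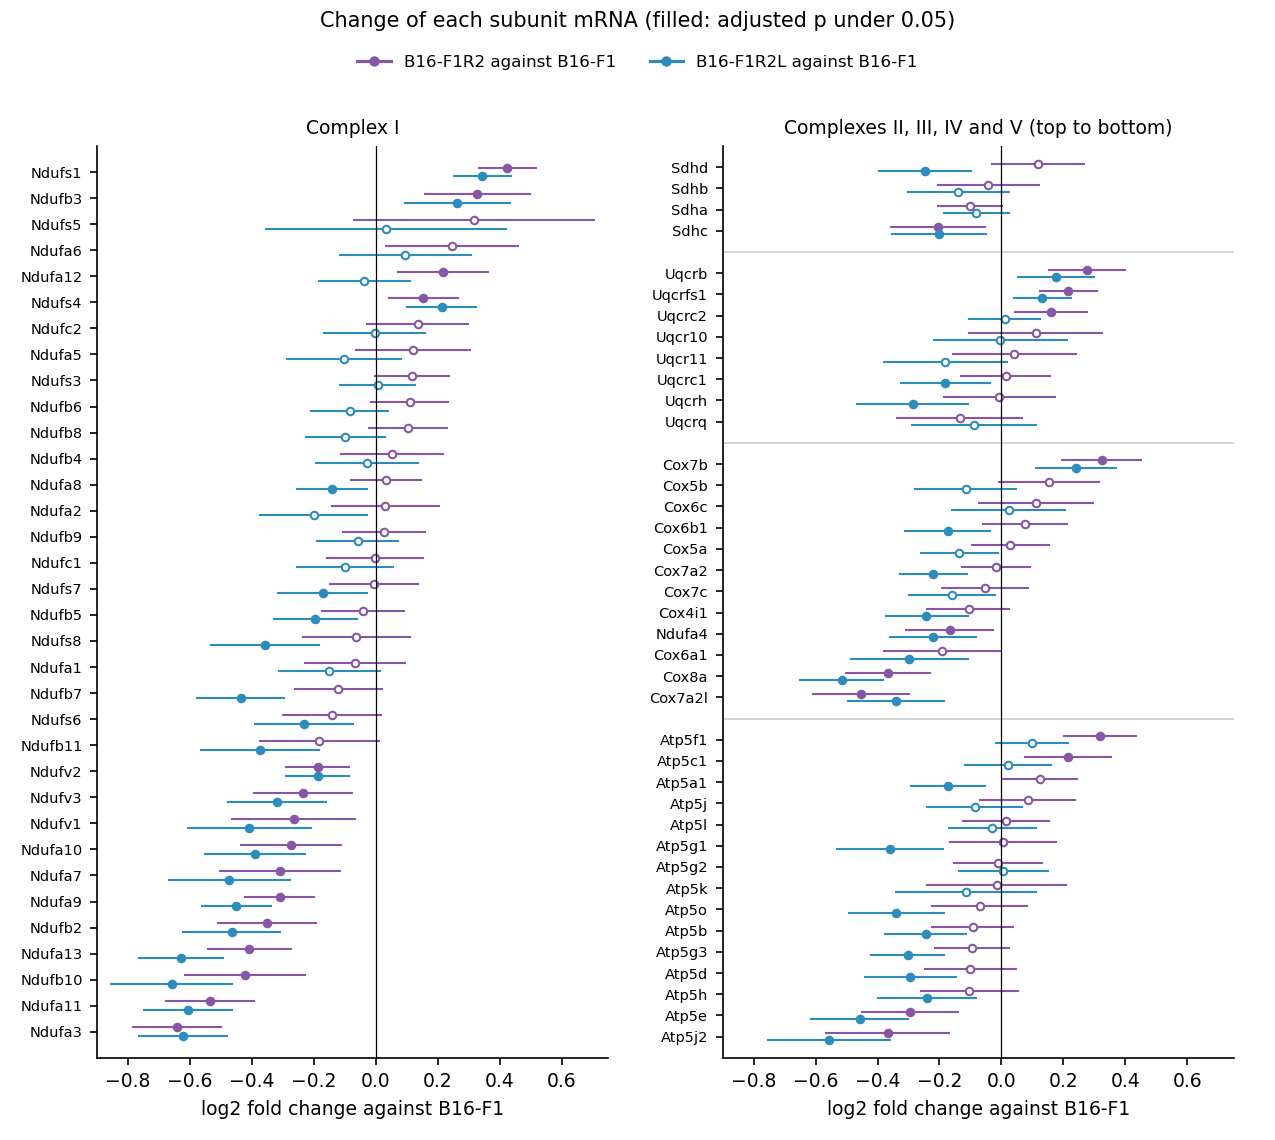
Points are log2 fold changes against B16-F1 of 73 tested subunit genes, with 95% confidence intervals from limma, for B16-F1R2 and B16-F1R2L; filled points passed an adjusted p of 0.05, and Cox7a1 and Ndufa4l2 are among those left out. Within each complex the B16-F1R2 points lie on both sides of 0, and most B16-F1R2L points lie to the left.

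Among the named members, the calls of 11 for B16-F1R2 held in the same direction under each of the 18 alternative settings: Ndufa3, Ndufa11, Ndufb10, Ndufa13, Ndufb2, Cox7a2l and Cox8a were lower, and Ndufs1, Uqcrfs1, Cox7b and Atp5f1 were higher. Among these the fitted log2 fold change of Ndufa3 stayed between -0.73 and -0.57 and that of Ndufs1 between 0.36 and 0.48. The range for Cox7b was wider, 0.11 to 0.38. The alternatives include leaving out each library, where the line concerned stood with 1 library and the spread came from the other lines.

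In B16-F1R2L, the lung metastasis line, more respiratory chain mRNAs were lower than higher against B16-F1. Of the 78 tested members 39 were lower (50%) and 9 were higher (11.5%), where 27.1% of all genes tested were lower and 29.5% higher. Without Cox7a1 and Ndufa4l2 7 were higher. The median log2 fold change of the members was -0.17, beside 0.02 for all genes. The deposited values of abundant genes in general were lower in this line: of the 926 other genes with a mean of at least 100 FPKM, 44.9% were lower and 18.6% higher, with a median of -0.14, while of the 66 members of that level 53.0% were lower and 6.06% higher, with a median of -0.18. Rescaling each library to the same FPKM sum moved the median of all genes to 0.12 and that of the members to -0.07, with 29 members lower and 13 higher. After it the 926 other genes of at least 100 FPKM had 33.3% lower and 29.4% higher, with a median of -0.04, and the 66 members of that level 39.4% and 12.1%, with a median of -0.08. Quantile normalization gave 28 lower and 15 higher and brought the medians close together, at -0.07 for the members and -0.05 for all genes. Without replicate 1 or replicate 2 of B16-F1 the counts were 22 lower and 5 higher, or 20 and 7, and without replicate 2 of B16-F1R2L they were 24 and 7.

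By complex, the share of members lower in B16-F1R2L was 19 of 35 in complex I, 2 of 4 in complex II, 2 of 8 in complex III, 7 of 14 in complex IV and 9 of 15 in complex V. Members higher numbered 3 in complex I, 0 in complex II, 2 in complex III, 3 in complex IV (1 without Cox7a1 and Ndufa4l2) and 0 in complex V. These counts depended on single libraries: without replicate 1 of B16-F1 the members lower numbered 14 in complex I, 2 in complex IV, 6 in complex V and 0 in complexes II and III. Without replicate 2 of B16-F1 they numbered 13, 2, 5 and 0, and without replicate 2 of B16-F1R2L 14, 3, 7 and 0, in the same order. Without replicate 1 of B16-F1R2L complex II had 0 lower. The median log2 fold change was -0.19 in complex I and -0.24 in complex V. Both stayed negative under the 3 other scalings but shrank, to -0.09 and -0.14 after rescaling to the same sum, beside 0.12 for all genes, and to -0.04 and -0.14 under quantile normalization, beside -0.05 for all genes, so that the median of complex I was then no lower than that of all genes. That of complex III was -0.05, and it turned to 0.06 after rescaling to the same sum and to 0.02 after quantile normalization.

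The summed FPKM of complex V, as a percentage of its B16-F1 mean, was 99.31 and 93.33 in the libraries of B16-F1R2 and 87.85 and 84.09 in those of B16-F1R2L. For complex I the B16-F1R2 libraries stood at 100.1 and 91.18 and the B16-F1R2L libraries at 88.27 and 84.39. Both B16-F1R2L libraries were below all others in these sums. Replicate 1 of B16-F1R2 lay at the B16-F1 level and replicate 2 below it. After rescaling, complex V was at 92.65 and 91.94% in B16-F1R2L and at 96.3 and 95.48% in B16-F1R2. Complex I was then at 93.09 and 92.27% in B16-F1R2L and at 97.03 and 93.28% in B16-F1R2, so the lines lay close together. Complex III in B16-F1R2L was at 104.4 and 100.3%.

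**Figure D3:**
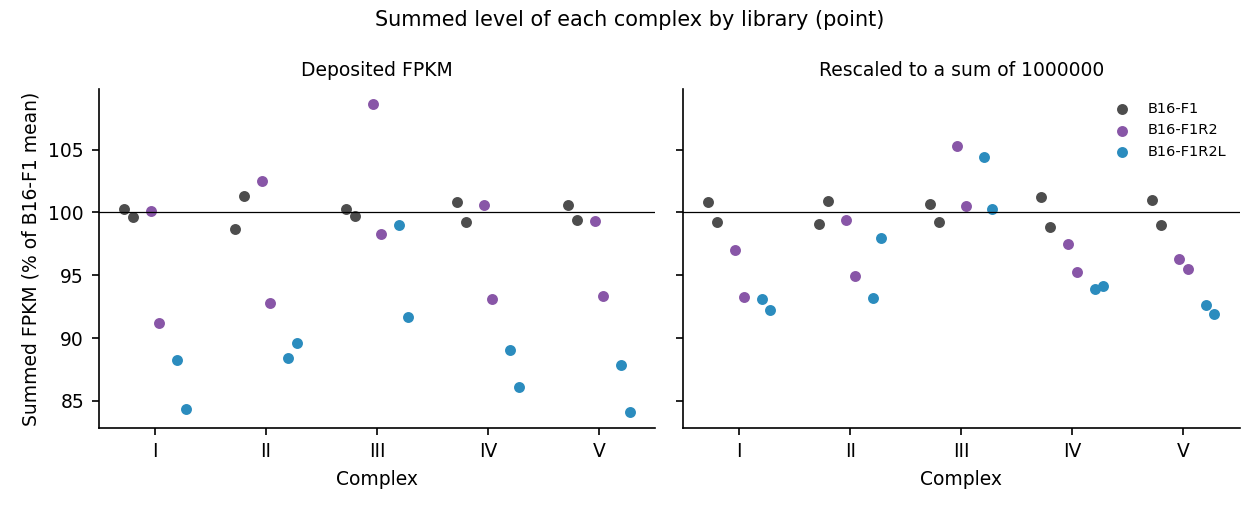
Each point is the summed FPKM of a complex in 1 library as a percentage of the mean of the 2 B16-F1 libraries, from deposited FPKM (left) and after each library was rescaled to a sum of 1000000 (right). B16-F1R2L sits at 84.09 to 88.27% for complexes I and V on the left and at 91.94 to 93.09% on the right, and complex III of B16-F1R2L reaches 104.4% on the right.

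The members lowest in B16-F1R2L relative to B16-F1 were again accessory subunits of complex I. Ndufb10 had 222.5 and 236.4 FPKM in the B16-F1 libraries, against 180.3 and 162.3 in those of B16-F1R2 and 154.9 and 136.0 in those of B16-F1R2L. The log2 fold change of B16-F1R2L was -0.66 ± 0.08 (SE, limma adjusted p = 0.000754), and the 3 lines did not overlap. Ndufa13, which also has a described role in cell death, had 189.1 FPKM in both B16-F1 libraries, against 148.9 and 136.3 in those of B16-F1R2 and 125.8 and 118.8 in those of B16-F1R2L. Its log2 fold change was -0.63 ± 0.06 (SE, limma adjusted p = 0.000200), again with no overlap among the 3 lines. Ndufa3 and Ndufa11 were lower by 35.1% and 34.4%, Ndufa7, Ndufb2, Ndufa9 and Ndufb7 by 26.1 to 27.9%. Of the core subunits, Ndufv1, Ndufv2, Ndufs7 and Ndufs8 were lower, and Ndufs1 was higher by 26.9% (limma adjusted p = 0.000511).

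In complex V 9 of 15 members were lower in B16-F1R2L. Atp5j2 had 494.8 and 476.8 FPKM in the B16-F1 libraries, against 395.9 and 358.1 in those of B16-F1R2 and 354.7 and 307.5 in those of B16-F1R2L, a decrease of 0.56 on the log2 scale from B16-F1 to B16-F1R2L (SE 0.08, limma adjusted p = 0.00167). Atp5o, the subunit that links head and stalk, was 21.0% lower and Atp5b 15.6% lower (limma adjusted p = 0.00455 and 0.00904). The 2 isoform genes Atp5g1 and Atp5g3 were 22.1% and 18.9% lower, and Atp5g2 had 717.4 and 703.9 FPKM for B16-F1 and 727.8 and 699.7 FPKM for B16-F1R2L, with an adjusted p of 0.938 (limma). Complex IV was lower in Cox8a by 30.1%, in Cox6a1 by 18.6% and in Cox4i1, the regulatory subunit that marks the common form of the enzyme, by 15.4% (limma adjusted p = 0.000454, 0.0175 and 0.00997). Cox7b was 18.2% higher (limma adjusted p = 0.00889). In B16-F1R2L against B16-F1 the calls of 17 named members held in the same direction under all 18 alternatives, all lower except Ndufs1 and Atp5s.

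Atp5s, which the symbol rule takes in but which is no subunit of ATP synthase, was the member outside the 5 complexes that moved most. It had 5.057 and 4.585 FPKM in the B16-F1 libraries, against 5.499 and 5.775 in those of B16-F1R2 and 7.924 and 7.581 in those of B16-F1R2L. Both B16-F1R2L libraries were above all others, 59.7% above B16-F1 (limma adjusted p = 0.000787) and 36.9% above B16-F1R2 (limma adjusted p = 0.0160). Atp5sl, its relative, was at 4.915 to 6.461 FPKM in all libraries, with no call in any comparison.

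The metastasis lines were also compared with each other. Of the 78 tested members 17 were below their B16-F1R2 level in B16-F1R2L (21.8%) and 1 was higher, Atp5s (1.28%), where 10.5% of all genes tested were lower and 12.1% higher. The median log2 fold change of the members was -0.15, beside 0.02 for all genes, and 69 of the 78 had a negative value. Without replicate 1 of B16-F1R2 the members' median was -0.09 and 61 of the 78 were negative. Among the 926 other genes with a mean of at least 100 FPKM, 31.7% were lower and 7.67% higher, with a median of -0.14, and the 66 members of that level had 25.8% lower and 0 higher, with a median of -0.15. After rescaling to the same sum 14.7% of these 926 genes were lower and 14.1% higher, against 9.09% and 1.52% of the 66 members. Over all tested members 6 were then lower and 2 higher, and the medians were -0.04 for members and 0.13 for all genes. Quantile normalization brought the medians close together, at -0.03 for the members and -0.01 for all genes. After the correction for GC content and length the 66 members had a median of -0.06, beside -0.10 for 830 other genes of at least 100 FPKM.

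These calls rested on single libraries. Without replicate 1 of B16-F1R2, or without replicate 2 of B16-F1R2L, 0 members were lower by limma's adjusted p. At an unadjusted limma p under 0.05 there were 19 and 18 lower in these fits, beside 35 with all libraries. Without replicate 1 of B16-F1R2L 10 were lower, and without either B16-F1 library, which enters only through the shared spread, 5 were lower. In B16-F1R2, 73 of 78 members were higher in replicate 1 than in replicate 2, by a median of 0.12 on the log2 scale, where the median difference over all genes was -0.01. In B16-F1 the 2 libraries split the members evenly, with 38 of 78 higher in replicate 1, and in B16-F1R2L 57 of 78 were higher in replicate 1, by a median of 0.06.

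Sdhd, a membrane anchor of complex II, had 223.0 and 231.6 FPKM in the B16-F1 libraries, against 261.5 and 233.0 in those of B16-F1R2 and 190.6 and 192.7 in those of B16-F1R2L, which put B16-F1R2L 22.3% below B16-F1R2 (limma adjusted p = 0.0128). Ndufb7 was 19.6% lower and Atp5g1 22.5% lower (limma adjusted p = 0.0161 and 0.0182). Atp5a1, the alpha subunit that alternates with beta in the catalytic head, had 687.0 and 652.0 FPKM for B16-F1R2 and 550.5 and 538.3 FPKM for B16-F1R2L (18.7% lower, limma adjusted p = 0.0122). Ndufb7, Atp5g1 and Sdhd each kept the call in 16 of 18 alternatives. Ndufs8, Uqcrh, Cox5b and Atp5o were lower by 17.1 to 18.5%, and kept the call in 9, 8, 10 and 11 of 18 alternatives.

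Several complex IV subunits have forms that belong to particular tissues, and most of these were listed at or near 0. Cox6b2, Cox7b2, Cox8b and Cox8c, known from testis or muscle, were listed at 0 in all 6 libraries. Cox4i2, a lung form that replaces Cox4i1, was listed at 0 in B16-F1 and B16-F1R2 and was at 0.1716 and 0.1434 FPKM in B16-F1R2L, at most 0.0183% of Cox4i1. Cox6a2, the muscle form of Cox6a1, was at 0.5394 FPKM or less in every library. These 6 members did not pass the filter on low values and were not tested with it.

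Cox7a1 and Ndufa4l2 were the exceptions. Cox7a1, the heart and skeletal muscle form of Cox7a2, was listed at 0 in both B16-F1 libraries, while the B16-F1R2 libraries gave 3.379 and 1.786 FPKM and the B16-F1R2L libraries 1.426 and 3.226 FPKM. Ndufa4l2, a relative of Ndufa4 that is known to be induced by low oxygen, had 0 and 0.1115 FPKM in the B16-F1 libraries, against 1.540 and 1.443 in those of B16-F1R2 and 2.425 and 1.968 in those of B16-F1R2L. Both genes were above both B16-F1 libraries in all 4 libraries of the metastasis lines. They passed the filter on low values only through the metastasis lines, so these values are a description, and no p or fold is given against libraries listed at or near 0. The levels were low: Cox7a1 reached at most 0.905% of Cox7a2 and Ndufa4l2 at most 0.244% of Ndufa4, and at the annotated length 1 read was worth about 0.190 to 0.219 FPKM for Cox7a1 and 0.0720 to 0.0830 FPKM for Ndufa4l2. Neither transcript had a stretch of 50 bases that occurs elsewhere.

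Of 5 muscle markers, Ckm, Des and Tnnt2 lay above both B16-F1 libraries in all 4 libraries of the metastasis lines. The summed level of the 5 markers was 1.158 to 1.393 FPKM in B16-F1, 23.70 to 26.93 in B16-F1R2 and 23.11 to 25.89 in B16-F1R2L, and most of it came from Ckm and Des. Acta1 and Myh7 were at or near 0 in all libraries (at most 0.2577 and 0.02908 FPKM), and Tnnt2, which was not tested, had 0.2983 and 0.07733 FPKM in the B16-F1 libraries, against 0.9942 and 0.9769 in those of B16-F1R2 and 0.4221 and 0.6650 in those of B16-F1R2L. Ckm, the muscle creatine kinase, went from 0.07456 and 0.1552 FPKM (B16-F1) to 15.77 and 13.08 FPKM (B16-F1R2). The part of muscle-like transcripts in the Cox7a1 values was not tested. The endothelial marker Pecam1 was at 0 in B16-F1 and 0.7515 to 1.258 FPKM in the metastasis lines.

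**Figure D4:**
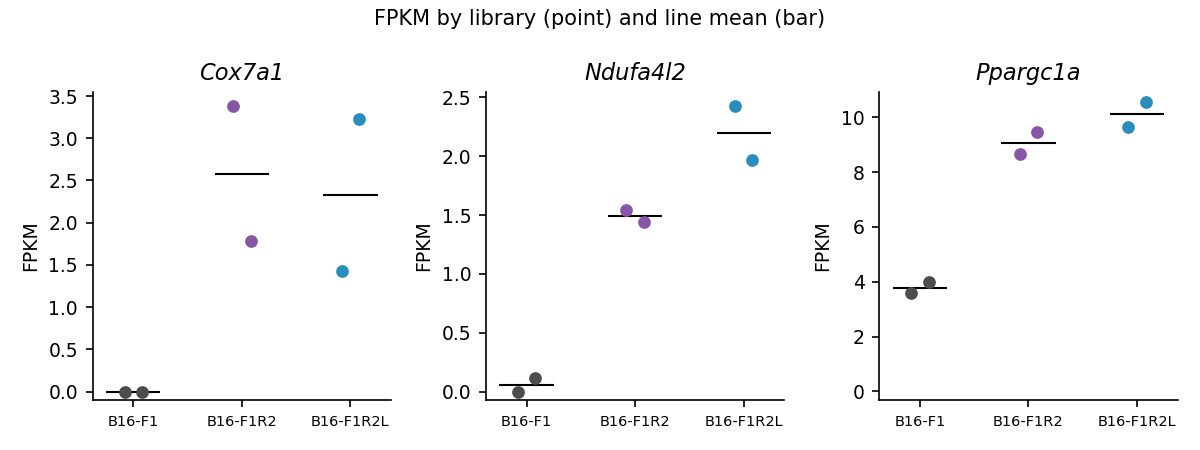
FPKM of Cox7a1, Ndufa4l2 and Ppargc1a in each library (points) with the mean of each line (bars), on linear axes. All 3 genes are higher in every library of B16-F1R2 and B16-F1R2L than in the B16-F1 libraries, and the 2 Cox7a1 values of a metastasis line lie about as far apart as 1.786 and 3.379 FPKM.

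The direction in which a subunit moved went with its base composition. Over the 76 tested members other than Cox7a1 and Ndufa4l2, the log2 fold change of B16-F1R2 against B16-F1 correlated with the GC content of the transcript with Pearson's r = -0.426 (Spearman's rho = -0.416), a description across genes that share the same libraries. For B16-F1R2L against B16-F1, which uses the same B16-F1 libraries, r was -0.587 (rho = -0.518). Over 10284 genes of all kinds r was 0.0117 and -0.00782 (rho = -0.128 and -0.192). The 26 members lowest in GC content (38.99 to 49.24%) had 9 higher and 4 lower in B16-F1R2, and the 26 highest in GC content (54.63 to 61.12%) had 0 higher and 9 lower, with medians of 0.11 and -0.11. In B16-F1R2L the same groups had 7 higher and 7 lower, and 0 higher and 18 lower, with medians of -0.06 and -0.30. Genes of all kinds split at the same limits also had a lower median at high than at low GC content, with -0.07 (high) and 0.06 (low) for B16-F1R2 and with -0.10 and 0.10 for B16-F1R2L.

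The GC content also went with differences between replicates. In B16-F1R2L the difference of the 2 libraries correlated with GC content with r = 0.460 over the 76 members and 0.346 over all genes, in B16-F1R2 with r = 0.225 and 0.0870, and in B16-F1 with r = -0.199 and -0.0953. After the correction for GC content and length, which was fitted over all genes, r between fold change and GC content was -0.221 for B16-F1R2 and -0.332 for B16-F1R2L over the members. It left the low-GC group with 6 higher and 12 lower in B16-F1R2 (median -0.03) and 4 higher and 14 lower in B16-F1R2L, and the high-GC group with 1 higher and 15 lower, and 0 higher and 18 lower. How far the libraries' treatment of GC-rich transcripts entered the fold changes was not tested beyond this.

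**Figure D5:**
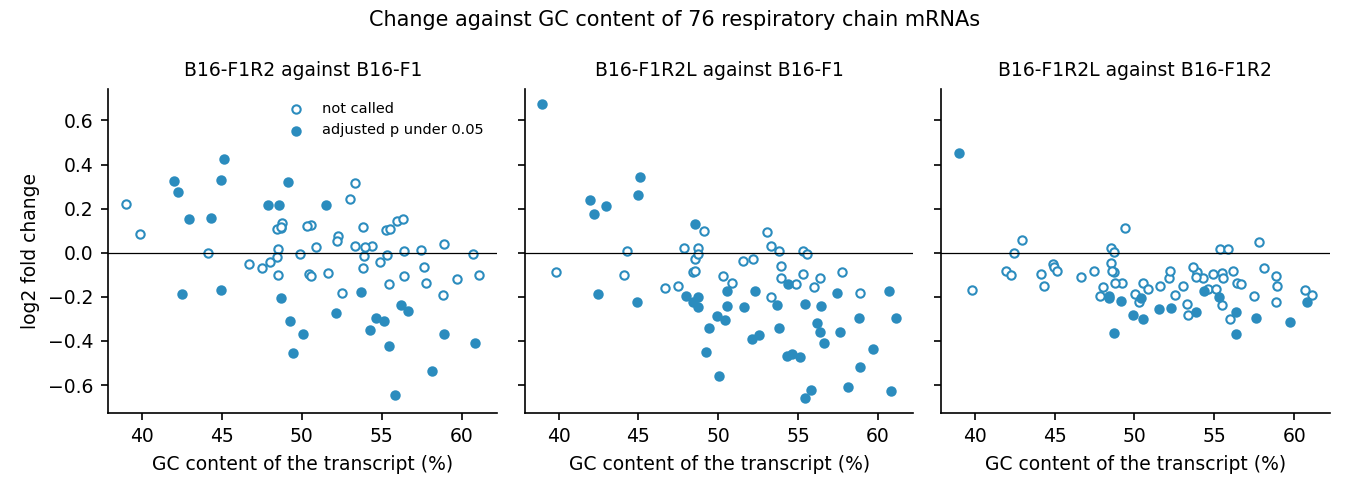
Each point is 1 of 76 tested members, with the GC content of its transcript (%) on the x axis and its log2 fold change on the y axis for the 3 comparisons; filled points passed an adjusted p of 0.05. In the first 2 panels the points slope down, with r = -0.426 and -0.587, and no member above 54.63% GC was called higher.

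Coding stretches of 3 members that were lower and 3 that were higher in B16-F1R2 show this difference in composition. They were chosen after the values were seen, each as the 90 bases whose GC share is closest to that of the whole coding sequence, from the NCBIM37 transcripts of the GENCODE annotation, with G and C in capitals. The lower members Ndufa13 (chromosome 8, 72418087 to 72426457), Ndufa3 (chromosome 7, 3568975 to 3571765) and Ndufb10 (chromosome 17, 24859005 to 24861423) have coding sequences of 60.0%, 55.78% and 54.99% GC, and come first. The higher members Ndufb3 (chromosome 1, 58643228 to 58652808), Cox7b (chromosome X, 103211039 to 103217789) and Ndufs1 (chromosome 1, 63190170 to 63223396) have 48.57%, 47.33% and 45.05%.
Ndufa13: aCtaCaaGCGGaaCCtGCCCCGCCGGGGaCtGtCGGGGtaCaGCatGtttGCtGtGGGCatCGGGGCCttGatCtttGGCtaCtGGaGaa
Ndufa3: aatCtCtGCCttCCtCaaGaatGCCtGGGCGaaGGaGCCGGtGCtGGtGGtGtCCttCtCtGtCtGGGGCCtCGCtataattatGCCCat
Ndufb10: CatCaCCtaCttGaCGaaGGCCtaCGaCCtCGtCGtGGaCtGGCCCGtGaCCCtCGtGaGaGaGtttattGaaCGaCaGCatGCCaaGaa
Ndufb3: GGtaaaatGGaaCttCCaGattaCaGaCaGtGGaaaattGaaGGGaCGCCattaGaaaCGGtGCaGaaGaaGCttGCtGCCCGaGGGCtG
Cox7b: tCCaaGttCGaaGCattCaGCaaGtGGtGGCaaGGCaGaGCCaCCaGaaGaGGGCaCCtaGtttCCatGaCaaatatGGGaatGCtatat
Ndufs1: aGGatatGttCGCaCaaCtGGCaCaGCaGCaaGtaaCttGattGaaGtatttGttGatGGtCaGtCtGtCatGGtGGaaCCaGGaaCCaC

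Genes of the respiratory chain are known to be controlled through promoter sites of NRF1, ETS family factors (among them GABP, also called NRF2), YY1 and the estrogen-related receptors. RefSeq promoters of 300 bases (250 before and 50 after the start, GRCm38.p6) were found for 69 members, of which 66 were tested. On either strand the NRF1 motif GCGCNTGCG was present in 33.3% of these 66 promoters and in 6.59% of all 27025, the ETS motif CCGGAAG in 22.7% and 9.12%, the YY1 motif AAGATGGC in 15.2% and 2.88%, and the receptor motif TCAAGGTCA in 3.03% and 0.407%. At least 1 of the 4 motifs was present in 59.1% of member promoters and in 17% of all. A match is a description of letters and no proof of a site. By complex, NRF1 matches were held by 2 of 3 promoters in complex II, 3 of 5 in complex III, 6 of 14 in complex V (42.9%), 9 of 31 in complex I (29%) and 1 of 11 in complex IV (9.09%).

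Promoters of 3 members that were lower in both metastasis lines, each with another of these motifs in capitals, and that of Cox7a1 follow. Ndufa3 holds a YY1 match just after the start, Ndufb10 an NRF1 match on the opposite strand and Cox8a a pair of ETS matches on the opposite strand. Cox7a1 holds none of the 4 motifs in this window. The same is true of Ndufa13, Ndufb2 and Cox7a2l, lower in both metastasis lines, and of Ndufb3 and Cox7b, higher in both. Coordinates are those of GRCm38.p6, unlike those of the coding sequences above.
Ndufa3, chr7:3617123-3617422, plus strand: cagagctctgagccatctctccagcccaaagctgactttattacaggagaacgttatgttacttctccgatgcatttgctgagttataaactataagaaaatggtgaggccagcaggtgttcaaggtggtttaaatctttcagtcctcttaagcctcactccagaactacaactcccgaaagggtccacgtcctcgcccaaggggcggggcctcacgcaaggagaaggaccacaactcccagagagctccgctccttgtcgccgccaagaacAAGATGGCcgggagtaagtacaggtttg
Ndufb10, chr17:24724374-24724673, minus strand: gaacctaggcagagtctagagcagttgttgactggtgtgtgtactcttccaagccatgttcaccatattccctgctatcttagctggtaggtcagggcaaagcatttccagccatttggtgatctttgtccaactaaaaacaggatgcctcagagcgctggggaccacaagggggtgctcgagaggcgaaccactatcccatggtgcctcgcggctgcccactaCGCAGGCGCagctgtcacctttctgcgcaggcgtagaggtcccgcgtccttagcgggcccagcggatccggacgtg
Cox8a, chr19:7217567-7217866, minus strand: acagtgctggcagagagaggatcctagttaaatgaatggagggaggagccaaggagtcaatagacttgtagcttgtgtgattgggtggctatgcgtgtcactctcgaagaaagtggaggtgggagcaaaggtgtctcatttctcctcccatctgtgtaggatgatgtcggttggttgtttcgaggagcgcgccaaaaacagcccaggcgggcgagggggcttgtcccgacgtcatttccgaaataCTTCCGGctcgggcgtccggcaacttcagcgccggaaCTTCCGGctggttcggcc
Cox7a1, chr7:30183921-30184220, plus strand: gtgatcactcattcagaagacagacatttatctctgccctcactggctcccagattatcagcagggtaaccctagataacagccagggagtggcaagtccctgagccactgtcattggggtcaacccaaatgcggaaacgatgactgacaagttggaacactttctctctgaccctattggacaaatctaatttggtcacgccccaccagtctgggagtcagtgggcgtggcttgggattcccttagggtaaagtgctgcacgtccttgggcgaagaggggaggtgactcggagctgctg

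Genes that build and serve the chain were counted beside its subunits, with 28.2% of all genes tested higher and 27.2% lower in B16-F1R2. Of 13 assembly factors of complex I, 7 were higher and 0 lower, with a median log2 fold change of 0.24, beside 4 higher and 12 lower among the 35 subunits of complex I. The 7 were Ndufaf2, Ndufaf4, Ndufaf5, Ndufaf6, Nubpl, Timmdc1 and Tmem126b. Of 4 genes of complex V assembly and its inhibition 3 were higher, the ATPase inhibitor Atpif1, Atpaf2 and Tmem70 (Tmem70 log2 fold change 0.65, limma adjusted p = 6.5e-05), and of 19 of complex IV 3 were higher and 1 lower (15.8% and 5.26%). Of 5 assembly factors of complex III, Lyrm7 and Bcs1l, which insert the Rieske protein, were higher and Uqcc2 was lower. In B16-F1R2L Lyrm7 was above B16-F1 with a log2 fold change of 1.17 (limma adjusted p = 0.00128), and the metastasis lines gave no call against each other (limma adjusted p = 0.112).

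Of 12 genes of mitochondrial protein import and folding, 10 were higher and 0 lower in B16-F1R2, with Hspe1 and Hspd1, the mitochondrial chaperonins, at log2 fold changes of 0.99 and 0.70. Of 77 mitochondrial ribosomal protein genes 32 were higher and 8 lower, and of 15 genes of the citric acid cycle and pyruvate dehydrogenase 7 were higher and 2 lower. Of 13 genes of ubiquinone synthesis, cytochrome c and the electron transfer flavoprotein with its dehydrogenase 4 were higher and 1 lower (30.8% and 7.69%). In B16-F1R2L against B16-F1, with 29.5% of all genes higher and 27.1% lower, the import list had 6 higher and 2 lower, the ribosomal list 24 and 21, the citric acid cycle list 3 and 4 and the complex I assembly list 5 and 1. In B16-F1R2L against B16-F1R2 the import list had 8 lower and 1 higher, and the ribosomal list 23 lower and 0 higher, beside 17 lower and 1 higher among the 78 members and 10.5% lower and 12.1% higher among all genes. These lists were chosen with earlier results of these data known and were not tested as sets.

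Of 16 tested regulators, 2 were higher (12.5%) and 1 was lower (6.25%) in B16-F1R2, where 28.2% of all genes were higher and 27.2% lower. The lower one was Lonp1, a mitochondrial protease (log2 fold change -0.45, limma adjusted p = 0.000358). Nrf1, Gabpa and Yy1, which encode factors of the promoter motifs above, gave no call in any comparison. Esrra, an estrogen-related receptor gene, was lower in B16-F1R2L against B16-F1 (log2 fold change -0.184, limma adjusted p = 0.0409). It was also lower in B16-F1R2L against B16-F1R2 (-0.337, limma adjusted p = 0.0155), without a call in B16-F1R2 against B16-F1. In B16-F1R2L against B16-F1, 5 of the 16 were higher (31.2%) and 2 lower (12.5%), beside 29.5% and 27.1% of all genes. Ppargc1a, a coactivator that raises respiratory chain transcription in many tissues and marks a respiring form of melanoma, had 3.573 and 3.975 FPKM in the B16-F1 libraries, against 8.652 and 9.456 in those of B16-F1R2 and 9.646 and 10.57 in those of B16-F1R2L. The metastasis lines were above B16-F1 in all 4 libraries, with log2 fold changes of 1.24 ± 0.09 and 1.40 ± 0.09 (SE, limma adjusted p = 9.5e-05 and 5.7e-05). Myc was the other regulator called higher in B16-F1R2, with 17.26 and 18.02 FPKM for B16-F1 and 34.71 and 42.15 FPKM for B16-F1R2. The subunit genes themselves had a median log2 fold change of -0.01 in B16-F1R2 and -0.18 in B16-F1R2L when Cox7a1 and Ndufa4l2 were left out.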

How the data were processed

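RNA of 3 mouse melanoma lines was measured in 2 libraries each, grouped by the labels. The polyadenylated RNA was read once from 1 end over 50 bases, and the reads were placed on NCBI37/mm9 by the authors with TopHat 2.0.10 and Bowtie 1.0.0, with 2 mismatches and 20 positions per read as upper limits. The deposited values are FPKM. The submitters' processing notes name Cuffnorm without a role, and the annotation is not given in the sources used here. Since FPKM hold no counts, the DESeq2 test of the study was not run.

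From the deposited FPKM, log2(FPKM + 0.1) was tested for the 11379 genes that reached 1 FPKM in 2 or more libraries, with limma 3.58.1 in R 4.3.3 (eBayes with a trend, all 6 libraries, two-sided, Benjamini-Hochberg over all genes tested, threshold 0.05). Errors are limma SEs. Fold changes of genes near 0 depend on the pseudocount of 0.1. Ndufa4 and Ndufa4l2 were placed in complex IV. Named members were the 8 with the largest changes in each direction of each comparison, the extremes in level of each complex, the tissue isoforms and the members not tested; of other lists, genes past a log2 fold change of 1 and Ppargc1a. Further members and assembly and import genes were named after their values were seen. The members, the lists and the tests were chosen with earlier results of these data known, and the set of other genes of at least 100 FPKM was added after seeing them. GC content, length and stretches of 50 bases came from NCBIM37 with GENCODE M1, for 90.4% of the genes tested, and the correction used robust splines with 4 degrees of freedom (MASS 7.3.60.0.1). The steps were tested on simulated data. Tables were made in Python 3.11.15 (numpy 2.4.6, pandas 2.3.3) and plots with matplotlib 3.10.9. Alternatives were other pseudocounts, filters, scalings, models, the replicate block, the GC correction and leaving out each library. Protein sequences were not used here. 1 member is counted in the totals and is not reported by name here.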

Additional observations from a re-analysis of the deposited data

How the results depend on the processing

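Counts of members called are given as higher and lower. Over the 6 omissions of a library the range was 7 to 19 higher and 9 to 23 lower for B16-F1R2 against B16-F1, 5 to 9 higher and 20 to 41 lower for B16-F1R2L against B16-F1, and 0 to 1 higher and 0 to 18 lower for B16-F1R2L against B16-F1R2. The counts of 0 lower came without replicate 1 of B16-F1R2 or replicate 2 of B16-F1R2L. Quantile normalization gave 19 higher for B16-F1R2, 15 higher (28 lower) when B16-F1R2L was set against B16-F1, and 8 lower between the metastasis lines. Between those lines there were 2 higher and 6 lower without a filter, among 80 members then tested. The added call was Cox4i2, with no signal in B16-F1R2 and only 0.1716 and 0.1434 FPKM in B16-F1R2L. Its fold change is set by the pseudocount, so this call is no evidence of a difference. Among the 78 members that passed the filter, 1 was higher and 6 were lower in that fit. There were 2 higher and 6 lower after rescaling to the same sum, 4 lower without a trend, and 5 lower with the 4 libraries compared only. The GC and length correction gave 38 lower for B16-F1R2 with or without the replicate block, and 5 higher between the metastasis lines in both forms. The replicate block alone gave 13 higher and 19 lower, 9 and 41, and 1 and 18. The correlation of deviations between libraries with the same number was 0.0519, -0.102 and 0.0789, so the numbers are not taken to pair the libraries. Of 2640 values of named members under alternatives, 229 lost a call, 92 gained one and 5 turned in sign with a call in at least 1 of the fits, small sign changes without a call aside: Ndufs4 in B16-F1R2 went to -0.011 and Uqcrc2 in B16-F1R2L to -0.115 under the GC correction, each with and without the block, and Ndufs5 in B16-F1R2L against B16-F1 ranged from -0.243 without replicate 1 of B16-F1 to 0.309 without replicate 2. The causes were not tested. The depth limits Cox7a1 and Ndufa4l2, whose levels rest on few reads.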
